A study of Mus musculus with 3 samples.

Results

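TBX5 is a T-box transcription factor that is needed to build the heart and the forelimb. Most TBX5 peaks in the deposited list overlap regions that the authors list for histone marks. The tissue and stage of those regions are unknown, so marks in the hearts used for TBX5 were not tested. The TBX5 peaks described here mostly overlap no such region. They are the 1327 peaks, of 12436 in the deposited list, that the authors' table places in the class Other, either away from promoters (Other_Nonpromoter, 1255 peaks) or at them (Other_Promoter, 72 peaks). The remaining peaks were classed as Active (9142), Poised (1763), Repressed (141) or Bivalent (63). All came from ChIP-seq, the sequencing of DNA precipitated with a protein, of hearts dissected at embryonic day 14.5 from mice of the outbred CD-1 stock. Antibody to TBX5 was used on 2 samples, and 1 sample of input chromatin served as their background. No genotype or treatment is named in the labels. Peaks were called once on the pooled TBX5 samples, so no value per replicate could be given, and no difference below could be set against the spread between hearts.

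Enhancers are commonly recognised by H3K4me1, with H3K27ac added when they are active. Promoters of active genes carry H3K4me3 and H3K9ac, chromatin held silent by Polycomb proteins carries H3K27me3, and constitutive heterochromatin and silenced repeats carry H3K9me3. T-box proteins bind a short core motif in DNA and act with other cardiac factors such as GATA4 and NKX2-5. In chromatin from a whole heart, a site bound in fewer cells and a site bound less often per cell cannot be told apart.

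The class name was checked against the marks listed for each peak. Of the 1327 peaks, 1254 overlapped no region of any of the 6 marks, and 73 (5.50%) overlapped at least 1. No Other-class peak overlapped an H3K27ac or an H3K27me3 region, which the class itself fixes. At promoters, 40 of the 72 peaks (55.6%) overlapped H3K4me1, so the promoter subset was largely not free of marks. The list has no Poised class at promoters, so H3K4me1 by itself does not take a promoter peak out of the Other class. Away from promoters no Other-class peak had H3K4me1. The class names appear to fix this as well, since all 1763 Poised peaks lay away from promoters and had H3K4me1. Of the 1255 Other-class peaks there, 18 had H3K4me3 and 11 had H3K9ac, and 9 had both. H3K9me3, which does not by itself take a peak out of the class, lay on 13 Other-class peaks (0.980%, exact 95% interval 0.523 to 1.67%) and on 17 of the 11109 peaks of the other classes (0.153%, 0.0892 to 0.245%). The Other class thus held 13 of the 30 H3K9me3 peaks in the list. The strongest of the 13 lay in Apol8, an apolipoprotein L family gene, with 19.8-fold enrichment (14.8 to 26.1). Next came peaks 17207 bp from Rab2a (10.7-fold), in Kcnk10 (7.65-fold) and 696242 bp from Rps29 (7.25-fold). Weaker ones included those in the zinc finger genes Zfp37 (6.04-fold) and Zfp68 (5.37-fold).

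Few Other-class peaks reached the bases at which transcription starts. Only 4 of 1327 (0.301%) overlapped a RefSeq promoter window, which runs from 250 bases before to 50 after a gene's start, against 1588 of 11109 peaks of the other classes (14.3%). Of the promoter subset it was 1 of 72 (1.39%), against 1490 of 2905 Active promoter peaks (51.3%). These 4 windows are shown because they are the RefSeq promoter windows that an Other-class peak overlaps. The authors' assigned starts include others, described with the promoter subset. They come from RefSeq on GRCm38.p6, the assembly that mm10 names, are written on the strand of the gene, and have the bases covered by the peak in capitals. Abcc4 encodes a transporter of organic anions and cyclic nucleotides, and the other 3 are predicted genes.
Abcc4, chr14:118676882-118677181, minus strand, 36 bases covered: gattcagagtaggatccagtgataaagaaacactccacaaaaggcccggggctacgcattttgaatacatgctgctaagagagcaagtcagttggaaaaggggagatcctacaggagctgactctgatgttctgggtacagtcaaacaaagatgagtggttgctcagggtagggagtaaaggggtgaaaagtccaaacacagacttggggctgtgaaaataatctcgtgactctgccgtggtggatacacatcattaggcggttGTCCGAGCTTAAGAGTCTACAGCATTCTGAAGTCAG
Gm38734, chr5:143132875-143133174, plus strand, 247 bases covered: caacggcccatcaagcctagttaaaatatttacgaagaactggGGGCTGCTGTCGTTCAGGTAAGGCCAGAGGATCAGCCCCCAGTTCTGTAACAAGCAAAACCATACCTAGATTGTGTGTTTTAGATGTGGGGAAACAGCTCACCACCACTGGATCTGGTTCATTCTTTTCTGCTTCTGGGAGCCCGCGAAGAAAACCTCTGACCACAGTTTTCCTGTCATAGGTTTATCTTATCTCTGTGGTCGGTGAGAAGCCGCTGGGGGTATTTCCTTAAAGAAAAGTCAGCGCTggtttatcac
Gm38808, chr6:50679433-50679732, minus strand, 43 bases covered: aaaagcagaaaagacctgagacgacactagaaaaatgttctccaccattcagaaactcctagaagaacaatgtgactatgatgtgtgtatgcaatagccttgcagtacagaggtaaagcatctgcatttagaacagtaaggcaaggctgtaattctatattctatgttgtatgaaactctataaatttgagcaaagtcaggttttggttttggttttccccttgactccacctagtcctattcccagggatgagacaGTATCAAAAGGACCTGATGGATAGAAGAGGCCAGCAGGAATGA
Gm31545, chr8:82797476-82797775, minus strand, 226 bases covered: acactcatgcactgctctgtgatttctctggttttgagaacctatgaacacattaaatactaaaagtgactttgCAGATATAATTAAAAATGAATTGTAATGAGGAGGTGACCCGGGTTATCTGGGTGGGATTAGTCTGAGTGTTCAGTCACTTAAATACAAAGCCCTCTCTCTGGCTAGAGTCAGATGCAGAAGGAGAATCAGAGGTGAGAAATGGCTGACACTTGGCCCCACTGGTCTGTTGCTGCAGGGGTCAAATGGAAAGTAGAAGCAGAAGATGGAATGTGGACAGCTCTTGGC
The peak at Abcc4 had 9.04-fold enrichment (5.81 to 13.5), with 22 fragments over its summit. At Gm38734 it was 6.44-fold, at Gm38808 6.04-fold and at Gm31545 5.49-fold. The summit itself lay inside the window at Gm38734 and Gm31545, and outside it at Abcc4 and Gm38808. The windows were searched on both strands for the T-box core GGTGTG, for its longer form GGTGTGA, which contains the core, and for the GATA motif AGATAA. No window held the core or the longer form, which were found in 19.0% and 3.98% of all 32619 RefSeq windows of the same length. AGATAA occurred 2 times at Gm38734 and 1 time at Gm31545, and 11.2% of all windows held it. Motifs under the other 1323 peaks were not analysed here.

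Away from promoters, Other-class peaks had a median fold close to that of marked peaks, on fewer fragments. Among non-promoter peaks of like background, given below, their median fold was the lower one. The fold enrichment of a peak is the authors' value, namely fragments of the pooled ChIP divided by local background at the point of highest signal, the summit. Its median was 6.09 in the Other class (order-statistic 95% interval 6.04 to 6.38, quartiles 5.13 and 8.06, n = 1327) and 5.59 in the other classes (5.53 to 5.65, n = 11109). That order rests on promoters. Away from them the medians were 6.09 in the Other class (6.04 to 6.41), 6.15 in the Active class (6.05 to 6.27) and 6.41 in the Poised class (6.27 to 6.54), so the first 2 intervals overlapped. At promoters the median was 6.04 in the Other class (5.64 to 6.73), against 4.37 in the Active class (4.35 to 4.41).

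Both terms of the fold were lower in the Other class. The median number of fragments over the summit was 17 in the Other class, against 23 in the Active class and 20 in the Poised class. The median local background was 1.73 fragments in the Other class, against 3.09 in the Active class and 2.12 in the Poised class. The background was within 0.07 fragments of its lowest value, 1.48, in 39.6% of Other-class peaks and in 6.54% of the other classes. Among non-promoter peaks within the same 0.07 fragments of the lowest background the median fold was 6.85 for 513 Other-class peaks, against 7.25 for both 346 Active and 345 Poised peaks. Above that and below 2.5 fragments it was 6.09 for 503 Other-class peaks, against 6.73 for 2280 Active and 6.59 for 835 Poised peaks. Where the background was 2.5 fragments or more it was 5.08 for 239 Other-class peaks, against 5.65 for 3611 Active and 5.49 for 583 Poised peaks. Other-class peaks were also narrower, with a median width of 219 bp (216 to 223), against 262 bp (259 to 264) in the Active class and 237 bp (234 to 242) in the Poised class.

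**Figure D1:**
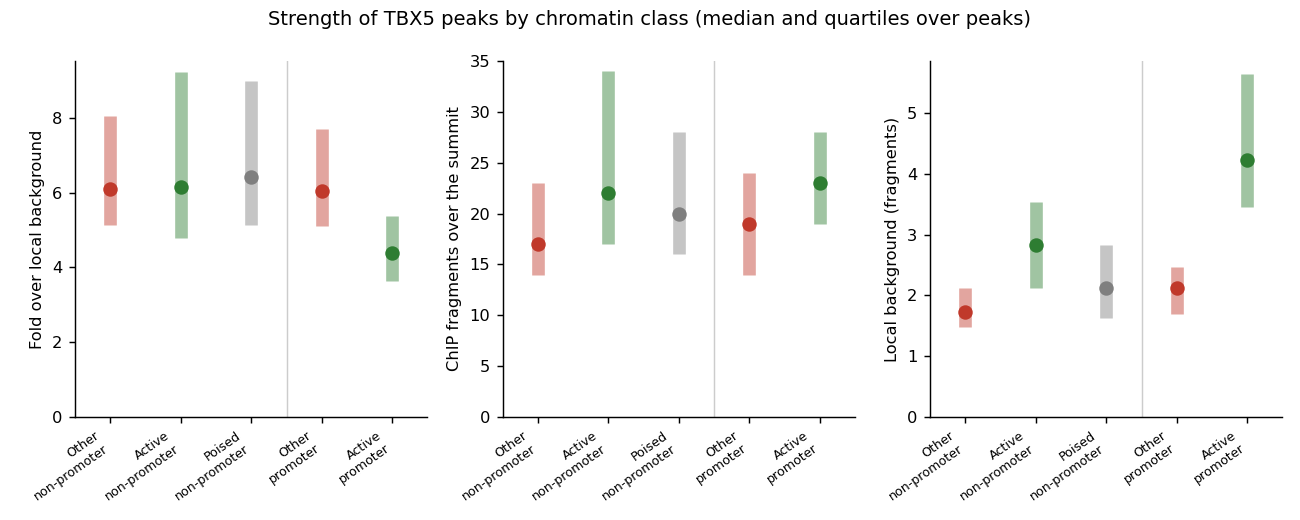
Median (point) and quartiles (bar) over peaks of the fold over local background, the ChIP fragments over the summit and the local background in fragments, for non-promoter and promoter peaks of each class. The folds of non-promoter classes are close together, with medians of 6.09, 6.15 and 6.41, while fragments and background are both lowest in the Other class.

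Away from promoters the Other class held a smaller share of the strongest peaks. A fold of at least 20 was reached by 25 Other-class peaks (1.88%, 1.22 to 2.77%), against 4.07% of all peaks in the list. Among non-promoter peaks it was 1.67% of the Other class (1.04 to 2.55%), against 5.55% of the other classes. At promoters the order turned, with 5.56% of the Other class (1.53 to 13.6%), against 1.01% of the other classes. A fold of at least 10 was reached there by 15.3%, against 4.59%. In the whole Other class, 193 peaks (14.5%) reached a fold of at least 10, against 16.7% of all peaks. A −log10 q of at least 10 was reached by 480 (36.2%), against 41.5%. The highest fold was 34.2 in the Other class, against 85.6 in the Active class and 60.4 in the Poised class. When all 12436 peaks were put in 5 equal groups by fold, the Other class made up 4.06% of the weakest group, then 9.85%, 14.2% and 15.4%, and 9.77% of the strongest. Grouped by fragments over the summit, it made up 22.3% of the weakest group, then 11.5%, 7.64% and 6.55%, and 5.27% of the strongest. On fold the class thus sat in the middle of the list, and on fragments at its weak end.

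The 10 strongest promoter peaks of the class had between 34.2- and 12.8-fold enrichment, and 9 of them overlapped H3K4me1, all but the one at Carmil1. Of the promoter peaks with H3K4me1 10 of 40 reached a fold of 10, against 1 of 32 without it, while the median folds were 5.90 and 6.20. The peak at Sdk1, a synaptic adhesion protein, had 34.2-fold enrichment (28.0 to 41.3, 105 fragments, chr5:141371911-141372259). It lay 1561 bp upstream of its assigned start, but inside the body of Sdk1 and of the overlapping predicted gene Gm16035. At Carmil1, a regulator of actin capping, a peak 149 bp from the start had 33.4-fold (26.9 to 41.2, 87 fragments, chr13:24108246-24108620). Near Rap1a, a small GTPase of cell adhesion, a peak had 30.3-fold (25.1 to 36.3, 115 fragments), though its assigned start, 737 bp away, lay outside the body of Rap1a, which was 14910 bp away. That peak overlapped a TBX3 region and stood 972 bp from a peak of the class Repressed_Promoter with 21.7-fold. The next peak had 23.4-fold and lay 950 bp from the predicted gene Gm34500, with Gfra2, a co-receptor for neurturin, as the nearest protein-coding gene at 38766 bp. A peak inside the body of Aqp4, a water channel, followed with 18.3-fold, 1519 bp upstream of its assigned start. The remaining 5 of the 10 strongest, between 17.0- and 12.8-fold, were nearest to Gm38469, Cntrl (a centriole protein), Cyb5r2 (a cytochrome b5 reductase), Ccdc33 and Ptgir (the prostacyclin receptor).

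Away from promoters, 6 of the 10 strongest peaks lay over 50 kb from any protein-coding gene. The top one, with 34.0-fold (28.4 to 40.3, 129 fragments, chr1:129057195-129057653), had Thsd7b as its nearest protein-coding gene at 215767 bp, and it overlapped a TBX3 region. The second, with 30.0-fold (24.2 to 36.7, 92 fragments, chr14:75518987-75519330), lay inside Siah3 and overlapped 1 of the 2 H3K4me3 region sets. The third had 29.0-fold (22.7 to 36.5, 71 fragments) and lay 19448 bp from Pcdh7, a protocadherin. By nearest protein-coding gene, then came a peak 103458 bp from Cachd1 (28.6-fold), a calcium channel modulator, and one inside Lekr1 (28.2-fold). Peaks with 26.0- and 25.0-fold followed, 2202 bp from Slitrk3 and 189294 bp from Slitrk5, which encode synaptic membrane proteins. The last 3 of the 10 were nearest to Sphkap (24.6-fold), to Hand2 (23.8-fold) and to Ascc3 (23.4-fold), a helicase subunit. Sphkap, an anchoring protein of protein kinase A, was 97169 bp from its peak, and Ascc3 was 279821 bp from its own. Hand2 is a transcription factor of the right ventricle and limb, and its peak (18.7 to 30.0, chr8:57209611-57209926) lay 111216 bp from the gene body. Even the strongest Other-class peak ranked 138 among all peaks.

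At the weak end, the lowest fold was 2.47 (1.81 to 3.28) in Sfi1, a centrosome gene. It rested on 45 fragments over a background of 17.7, the highest background of any Other-class peak. The next was a promoter peak near Cstdc2 with 2.69-fold on 15 fragments.

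Other-class peaks lay farther from transcription starts than marked peaks. The median distance to the assigned start was 49760 bp in the Other class, against 12818 bp in the Active class and 42635 bp in the Poised class. The promoter subset was 5.43% of the Other class (4.27 to 6.78%), against 31.8% of the Active class (30.8 to 32.7%). Read the other way, the Other class made up 2.36% of all peaks within 2 kb of a start (1.85 to 2.96%), 8.78% at 2 to 10 kb, 10.9% at 10 to 50 kb, 15.2% at 50 to 100 kb and 21.3% beyond 100 kb (19.5 to 23.2%). Each step up in distance held a larger share of Other-class peaks.

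**Figure D2:**
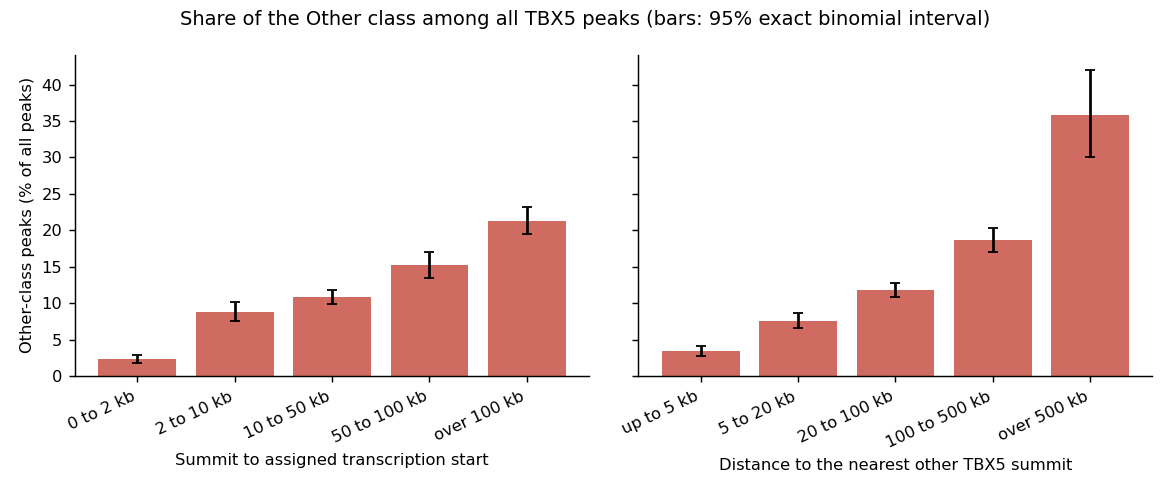
Share of Other-class peaks among all TBX5 peaks, in percent, by distance of the summit to the assigned transcription start (left) and to the nearest other TBX5 summit (right), with exact 95% binomial intervals. The share climbs with both distances, to 21.3% beyond 100 kb from a start and to 35.9% where no other summit lies within 500 kb.

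Within the promoter class, the Other-class summits lay farther from the start than the Active ones, spread over the window. Only 7 of 72 (9.72%) lay within 250 bp of the assigned start, against 1795 of 2905 Active promoter summits (61.8%). At 500 to 1000 bp lay 15 of 72 (20.8%), and as many at 1000 to 1500 bp. Beyond 1500 and up to 2000 bp lay 28 of 72 (38.9%), against 5.47% of the Active ones. The median distance was 1317 bp in the Other class, against 152 bp in the Active class. Of the 28 outermost peaks 18 carried H3K4me1, and of the 7 innermost 3 did. The 7 innermost were at Carmil1, Gm7244 (9.94-fold), Abcc4, Eml1 (7.75-fold), a microtubule protein, Kif7 (5.89-fold), a kinesin of Hedgehog signalling, Tnrc6b (5.45-fold), a protein of microRNA silencing, and A330102I10Rik (5.64-fold), a non-coding gene for which Sox4 was the nearest protein-coding gene at 60572 bp.

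**Figure D3:**
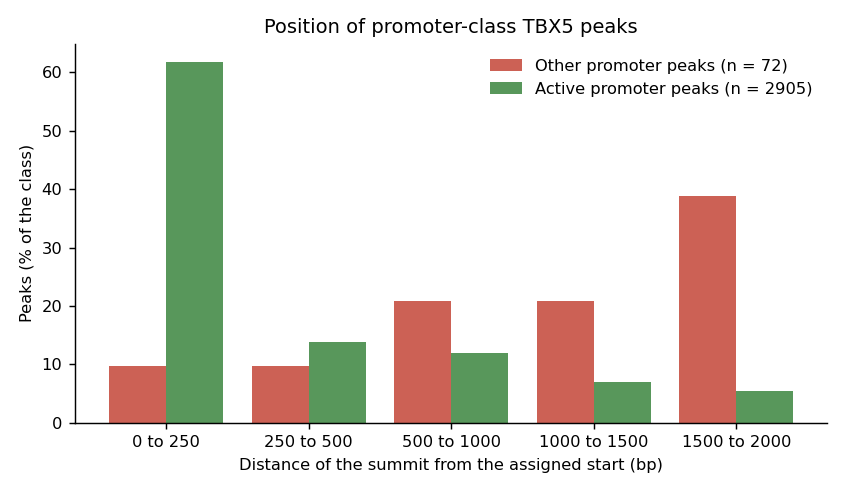
Distance of promoter-class summits from the assigned start, as a percentage of 72 Other and 2905 Active promoter peaks. Active summits gather within 250 bp (61.8%), where 9.72% of Other summits lie, and the largest group of Other summits lies beyond 1500 bp (38.9%).

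Fewer Other-class summits lay in genes. Inside a protein-coding gene body were 596 of 1327 (44.9%, 42.2 to 47.6%), against 61.7% of Active (60.7 to 62.7%) and 54.8% of Poised summits (52.5 to 57.2%). More than 100 kb from any protein-coding gene were 307 Other-class summits (23.1%, 20.9 to 25.5%), against 7.41% of Active and 17.1% of Poised summits. More than 500 kb away were 64 (4.82%), against 0.722% of Active and 2.04% of Poised summits. The gene holding an Other-class summit was long, with a median of 157192 bp for non-promoter peaks, against 128233 bp in the Active class and 161492 bp in the Poised class.

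On autosomes the Other class made up 10.5% of peaks (9.99 to 11.1%), between 7.20% on chromosome 19 and 14.0% on chromosome 10. On the X chromosome it made up 34 of 152 peaks (22.4%, 16.0 to 29.8%). The median fold of these 34 was 8.46, and their median background was 1.48 fragments, against 2.12 for the other 118 peaks of the X chromosome. The strongest were in L1cam (16.7-fold), a neural adhesion molecule, near Tmem28 (15.7-fold) and in Chrdl1 (15.7-fold), an inhibitor of bone morphogenetic proteins. The part of background in the share on the X chromosome was not tested.

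Other-class peaks stood apart from the marked peaks. A marked TBX5 summit, of any other class, lay within 10 kb of 135 Other-class summits (10.2%, 8.60 to 11.9%), against 37.4% of Active (36.4 to 38.4%) and 18.8% of Poised summits (17.0 to 20.7%). The median distance to the nearest marked summit was 79694 bp in the Other class, against 20579.5 bp in the Active class and 46106 bp in the Poised class. The gap to Active summits was present at each distance from a start. Among summits over 100 kb from a start, 7.80% of the Other class had a marked summit within 10 kb, against 29.6% of Active and 19.2% of Poised summits. At 2 to 10 kb from a start it was 13.8% in the Other class (8.88 to 20.2%). There it was 48.3% of Active and 22.9% of Poised summits (18.1 to 28.2%), so the intervals of the Other and Poised classes overlapped.

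**Figure D4:**
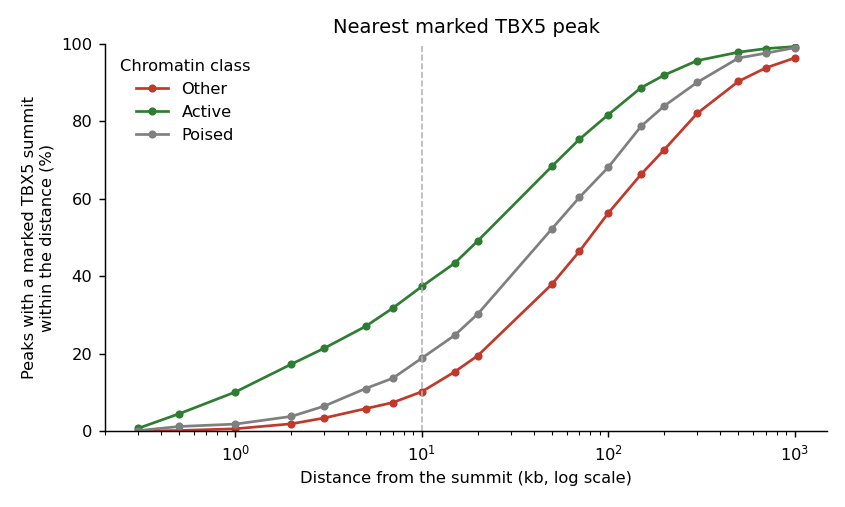
Percentage of Other, Active and Poised summits with a marked TBX5 summit within a given distance in kb (log axis), the dashed line marking 10 kb. The Other curve runs below both others throughout, at 10.2% against 37.4% and 18.8% at 10 kb and at 38.0% against 68.4% and 52.3% at 50 kb.

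Isolation was common in the class. No other TBX5 summit of any class lay within 100 kb of 516 Other-class summits (38.9%, 36.3 to 41.6%), against 16.1% of Active and 27.7% of Poised summits. Of all peaks with no other summit within 500 kb, 94 of 262 (35.9%, 30.1 to 42.0%) were Other-class peaks, although the class was 10.7% of the list. The most isolated peak (6.14-fold) lay 2664297 bp from the next summit, with Slc39a10, a zinc transporter, as the nearest protein-coding gene at 1533697 bp and the predicted gene Gm23240 at 2700 bp. The next peak (10.7-fold) lay 2016507 bp from any other summit and 135236 bp from Ctnna2, a neural catenin. The third (14.5-fold) lay 1892359 bp from any other summit and 155086 bp from Hnf4g, a nuclear receptor of gut and liver.

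Where Other-class peaks had company, it was sometimes of their own kind. In all, 42 Other-class summits (3.17%, 2.29 to 4.25%) had another Other-class summit within 10 kb, against 1.30% of Active (1.08 to 1.56%) and 2.27% of Poised summits (1.63 to 3.08%). The intervals of the Other and Poised classes overlapped. They formed 21 pairs, with a median spacing of 4512 bp. Of the 10 strongest non-promoter peaks, those near Pcdh7, Sphkap and Hand2 belonged to pairs without a marked summit within 10 kb. The partner near Pcdh7 had 9.67-fold at 5371 bp, the one near Sphkap 8.16-fold at 8547 bp and the one near Hand2 7.25-fold at 4512 bp. A pair in Ebf3, a transcription factor gene, had 18.8- and 6.01-fold at 1787 bp.

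Marked company was densest at Actc1, which encodes the cardiac actin of the sarcomere. Of the 1327 peaks, 1192 had no marked summit within 10 kb, 110 had 1, 20 had 2 and 3 had 3. Both peaks with 6 lay just outside the Actc1 body, at 906 and 1320 bp from it, and 414 bp from each other. The first (chr2:114046214-114046854) had 8.66-fold (5.77 to 12.5, 26 fragments) and the second (chr2:114045514-114046015) had 5.76-fold (3.44 to 9.14, 16 fragments). The 7 Active peaks listed within 15 kb of this gene ranged from 4.18- to 7.63-fold, so the stronger Other-class peak had the highest fold of the locus, with an interval that overlapped those of the Active peaks. Of the peaks with 3 marked neighbours, one lay in Entpd5 (8.46-fold), a nucleotidase, one near Sdhaf1 (6.25-fold), an assembly factor of succinate dehydrogenase, and one inside both Mib1 (5.08-fold), a ubiquitin ligase of Notch signalling, and the overlapping host gene of the muscle microRNA Mir133a-1.

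The nearest marked summit was Active_Nonpromoter for 731 of 1327 Other-class peaks (55.1%), Poised_Nonpromoter for 294 (22.2%) and Active_Promoter for 273 (20.6%). These classes made up 56.1%, 15.9% and 26.2% of all marked peaks. The marked summit was the stronger of the 2 by fold in 46.9% of cases (44.2 to 49.7%). Its fragments over the summit had a median of 22, against 17 for the Other-class peaks.

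TBX3, a T-box repressor of the conduction system that recognises the same core motif, shared few of these sites. Regions of TBX3, listed by the authors beside each peak, overlapped 44 of 1327 Other-class peaks (3.32%, 2.42 to 4.43%), against 27% of all peaks, 33.8% of Active peaks (32.8 to 34.8%) and 10.0% of Poised peaks (8.68 to 11.5%). This measure was not used to define the class. The gap to Active peaks was present in every group by distance from a start. Beyond 100 kb it was 2.44% in the Other class, against 17.1% of Active and 4.92% of Poised peaks, and the intervals of the Other and Poised classes overlapped. In the weakest of the 5 groups by fold 1.98% of Other-class peaks overlapped TBX3, against 41.5% of Active and 17.8% of Poised peaks. In the strongest it was 4.53% of Other-class peaks, against 26.0% of Active and 9.49% of Poised peaks. In marked peaks the share was higher where the local background was higher. Among non-promoter peaks within the same 0.07 fragments of the lowest background it was 3.31% in the Other class (1.94 to 5.25%), 10.1% in the Active class (7.15 to 13.8%) and 6.38% in the Poised class (4.04 to 9.50%), so the intervals of the Other and Poised classes overlapped there. At a background of 2.5 fragments or more it was 3.35% in the Other class (1.46 to 6.49%), 34.2% in the Active class and 14.9% in the Poised class. After the peaks nearest Thsd7b and Rap1a, the strongest shared sites were nearest to 4930591A17Rik (17.6-fold), Cyb5r2 (14.1-fold), Nipal2 (12.9-fold) and Septin11 (12.6-fold). One of the 10 strongest shared sites, with 10.1-fold, had Sox9, a transcription factor of cartilage and heart valves, as its nearest protein-coding gene at 142730 bp, while the predicted gene Gm46301 lay 36100 bp away.

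**Figure D5:**
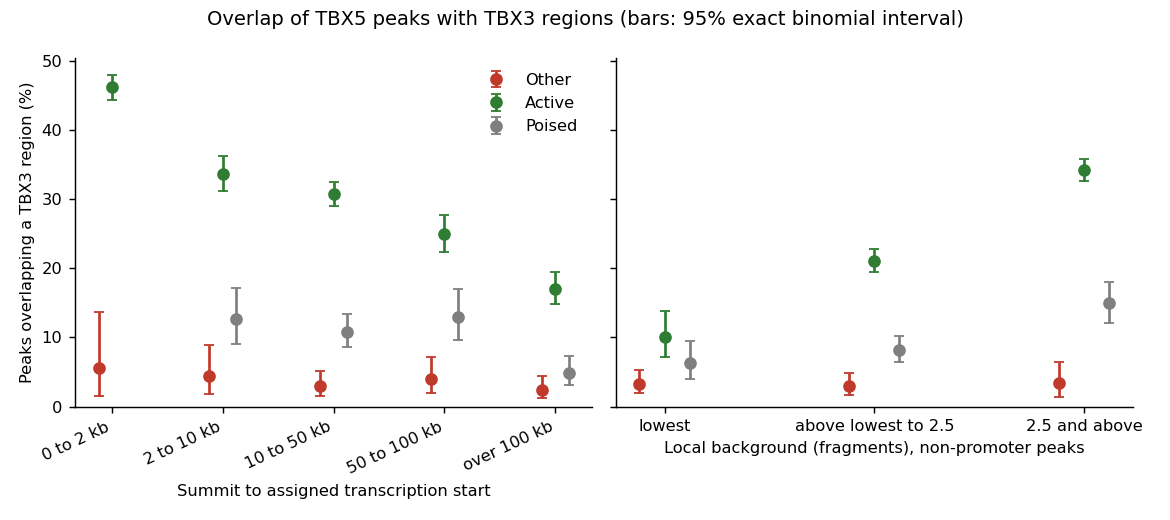
Percentage of Other, Active and Poised TBX5 peaks that overlap a TBX3 region, with exact 95% binomial intervals, by distance to the assigned start (left, all peaks) and by local background at the summit in fragments (right, non-promoter peaks, with lowest meaning within 0.07 of 1.48). Other-class peaks stay between 2.44% and 5.56% in every group, below the Active peaks in each.

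The genes near Other-class peaks were longer than the genes with a TBX5 summit of any class. This was not particular to the Other class. Genes holding a non-promoter summit had a median length of 157192 bp in the Other class, against 161492 bp in the Poised class. Of 21631 protein-coding genes, 741 (3.43%) had at least 1 Other-class summit in the body or within 10 kb, against 6475 (29.9%) with a summit of any class. For 370 of the 741 the Other-class summits were the only TBX5 summits. The matching count for the other classes was not made, so this cannot be read as a trait of the class. The median length was 91614 bp for the 741 genes, against 34298 bp for all genes with a summit and 17329 bp for all genes. An Other-class summit was found at 1.24% of genes up to 20 kb, 3.22% of those of 20 to 100 kb, 11.1% of those of 100 to 300 kb and 26.4% of the 557 genes over 300 kb. Among genes with any summit the share with an Other-class summit was 6.30% up to 20 kb and 37.3% over 300 kb. Pcdh15, a cadherin of hair cells that is 1553555 bp long, had 4 Other-class summits and no marked one, the strongest at 13.7-fold. Another 11 genes had 3 each. The 9 of them with the strongest Other-class summits were Pld5, Naaladl2, Robo1 (an axon guidance receptor), Mtus2, Rbfox3 (a neuronal splicing factor), Eml1, Arsb (a lysosomal sulfatase), Lrmda and Gabrg3 (a GABA receptor subunit), the last again without a marked summit.

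Other-class summits were a small part of the TBX5 summits at genes of heart muscle. None of 32 cardiac transcription factors had one within 10 kb (0 to 10.9%), although 22 of them had a TBX5 summit, and all 85 of those summits were marked. Of 28 sarcomere genes 25 had a summit and 2 an Other-class one, of 26 conduction and ion channel genes 22 and 2, and of 20 calcium handling genes 17 and 3. These 106 genes together held 310 summits, of which 8 were Other-class (2.58%, 1.12 to 5.02%), against 7.94% of all summits in or within 10 kb of a protein-coding gene (7.39 to 8.51%). Counted by gene, 7 of the 106 had an Other-class summit (6.60%, 2.70 to 13.1%), against 3.43% of all protein-coding genes. Of those with any summit it was 7 of 86 (8.14%, 3.34 to 16.1%), against 11.4% of all such genes. Both intervals held the value of the whole gene set, so by gene no difference was detectable at this size of list.

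The heart genes that did have an Other-class peak spanned contraction and excitation. Apart from Actc1, the sarcomere gene was Myom2, which encodes an M-band protein. Its Other-class peak lay 871 bp from the start with 7.33-fold (4.66 to 11.0, 21 fragments), and its only marked peak, Active_Promoter, had 3.82-fold (2.37 to 5.86). Cacna2d1, an auxiliary subunit of voltage-gated calcium channels, had an Other-class peak with 16.9-fold (12.3 to 22.8, 41 fragments, chr5:16163284-16163577) inside the gene, against 4.71- and 8.68-fold for its 2 marked peaks. Itpr2, a calcium release channel, had one with 4.21-fold, and Slc8a1, the sodium-calcium exchanger, one with 3.79-fold. The potassium channel genes Kcnd2 and Kcnn2 had one each, with 6.85- and 6.41-fold. All of these but the peak in Cacna2d1 had intervals that reached below 6-fold.

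In the next 3 lists the share of genes with any summit that had an Other-class one was 14.3%, 14.3% and 25.0%, with intervals that all held the 11.4% of the whole gene set. Of 24 genes of septation and congenital heart disease 14 had a summit and 2 an Other-class one, at Tll1 (5.64-fold), a metalloprotease needed for septation, and at Rbm20 (5.17-fold), a splicing factor of titin. Of 31 genes of BMP and TGF-beta signalling 21 had a summit and 3 an Other-class one, namely the receptors Acvr1 (9.07-fold, 5.94 to 13.3) and Tgfbr1 (5.32-fold) and the mediator Smad4 (6.52-fold). Of 18 endothelial and endocardial genes 8 had a summit and 2 an Other-class one. Fli1, an ETS factor of endothelium and blood, had no TBX5 summit but the Other-class one, 8875 bp outside its body, with 14.2-fold (10.3 to 19.3, 40 fragments, chr9:32413173-32413484). Erg, a related ETS factor, had one with 4.71-fold inside the gene.

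The remaining lists are too small to be told apart from the 3.43% of all genes, apart from the neuronal one. No Other-class summit was found at 16 epicardial and fibroblast genes, 12 smooth muscle genes, 15 blood genes, 19 skeletal muscle genes or 21 limb and lung genes, of which 2, 6, 4, 5 and 3 had a summit of any class. Of 19 liver genes 4 had a summit and F9, a clotting factor on the X chromosome, an Other-class one with 8.86-fold. Of 22 neuronal genes 8 had a summit and 6 an Other-class one. The strongest was in Dlg2 (18.1-fold, 13.3 to 24.2), a postsynaptic scaffold, followed by Rbfox3 (8.06-fold), Csmd1 (7.25-fold) and Syt1 (4.81-fold), the synaptic vesicle calcium sensor. Cntnap2, a neuronal adhesion gene, had one with 3.75-fold. The neuronal genes had a median length of 344610 bp, against 28300 bp for the cardiac transcription factors, and 26.4% of all genes over 300 kb had an Other-class summit. The part of gene length in these counts was not tested.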

How the data were processed

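TBX5 ChIP-seq was made from 2 samples of E14.5 hearts and 1 input sample. Per the labels' protocols, libraries of 200 to 650 bp fragments were sequenced from a single end for 50 bases. The submitters' processing notes name mm10 as the build and list Bowtie2, SAMtools, MACS2 and ChIPseeker. Not given in the sources used here were versions, settings, and the tissue and stage of the mark and TBX3 regions. The deposited peak list gives 1 call on pooled TBX5 samples, with the authors' fold ratio, −log10 p, −log10 q and score (10 times −log10 q, truncated) per peak, used here to rank and describe peaks inside this list alone. The authors' table adds the distance to a start, the promoter class (within 2000 bp), mark overlaps, the chromatin class and TBX3 overlap.

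Read depth per sample is unknown. Summit fragments and background were therefore solved jointly from the fold, (fragments + 1)/(background + 1), and from −log10 p, taken as the upper tail of a Poisson distribution. All 12436 peaks had a whole-number solution within 0.0005, and 100% of 500 simulated pileups were recovered. Intervals beside a fold are exact 95% Poisson intervals of the fragments with the background fixed. Shares have Clopper-Pearson intervals (exact) and medians have intervals from order statistics. All cover counting error only and treat peaks as independent, and no p-value was computed. Genes came from RefSeq on GRCm38.p6, which gives bodies without exons, so exons, introns and UTRs were not assigned. The pipeline ran in Python 3.11.15 with pandas 2.3.3 and scipy 1.17.1.

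Genes were named by rule: the nearest gene of the 10 strongest promoter and 10 strongest non-promoter peaks, the 10 genes with the most Other-class summits (11 tie at 3, ordered by fold), up to 4 of each of 14 gene lists (5 of the 6 neuronal genes are given), the 3 peaks with the most marked neighbours (3 peaks tie for the third place), the 3 farthest from other summits and the 3 weakest. Some items that the rule names are not reported here. Peaks singled out for pairs, H3K9me3, TBX3, chromosome X, tRNA or microRNA genes and starts within 250 bp were chosen after their values were seen. The members and lists were chosen with earlier results of these data known. Alternatives were leaving out peaks with −log10 q under 10, other windows, edge distances and other definitions of strength.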

Additional observations from a re-analysis of the deposited data

How the results depend on the processing

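No paired analysis was possible because peaks were called once on the pooled samples, and leaving out a replicate was not possible for the same reason. In 3 settings the direction against the other classes turned. The median fold of the Other class was 6.09 among non-promoter peaks, against 6.23 in the other classes. The median in fragments over the summit was 17 in the Other class, against 22. By fragments, the weakest of the 5 groups held 22.3% Other-class peaks, above the 10.7% of the whole list. With −log10 q of at least 10 the class held 480 peaks with a median fold of 9.11, a median width of 272 bp and summits at 273 genes. Promoter peaks alone gave a median fold of 6.04 and width of 224.5 bp, a marked neighbour for 20.8% and TBX3 for 5.56%. The promoter share was 2.19% at 1000 bp and 9.34% at 5000 bp. Marked neighbours were found for 5.80% within 5 kb, 38.0% within 50 kb and, in a setting added after the data were seen, 8.45% of summits over 50 kb from a start. The share in gene bodies was 54.4% with 10 kb added and 53.3% for all annotated genes. The number of genes was 1504 with 50 kb windows and 1112 by nearest gene. TBX3 overlap was 4.53% in the strongest of the 5 groups by fold, also added. By −log10 q the weakest group held 8.48% and the strongest 7.44% Other-class peaks, and by fragments the strongest group held 5.27%. The other 17 settings stayed within the interval, or within 1.5 times the count, of the main value. Peaks, not animals, are the units of every interval, the depth per sample is unknown, and a peak with 10 to 20 fragments has a fold interval wider than the differences between class medians.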

Other observations

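Among the 18 Other-class peaks with H3K4me3, 3 lay next to tRNA genes, which are transcribed by RNA polymerase III. These summits were 1 bp from n-TEctc9 (4.81-fold), 36 bp from n-TSaga5 (4.90-fold) and 1037 bp from n-TLaag6 (4.41-fold), and all 3 peaks also overlapped H3K9ac. They were noticed after the values were seen. Over the whole class, 2 of 1327 summits (0.151%, 0.0183 to 0.543%) lay within 1 kb of a tRNA gene, against 33 of 11109 summits of the other classes (0.297%, 0.205 to 0.417%), and these intervals overlapped.

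MicroRNA genes lay within 10 kb of 10 Other-class summits (0.754%, 0.362 to 1.38%), against 1.85% of all peaks. In the other classes together it was 220 of 11109 summits (1.98%, 1.73 to 2.26%), an interval above that of the Other class. That comparison includes promoter peaks. For the Poised class, which has no promoter peaks, it was 12 of 1763 summits (0.681%, 0.352 to 1.19%). Away from promoters it was 7 of 1255 Other-class summits (0.558%, 0.225 to 1.15%), against 71 of 6237 Active summits (1.14%, 0.890 to 1.43%). The intervals overlapped in the comparison with Poised summits and in the one with Active summits away from promoters. The closest was Mir215, a microRNA of gut and kidney epithelium, 145 bp from a summit with 3.53-fold. A summit 4672 bp from Mir200c, a microRNA of epithelial cells, had 8.06-fold, and a summit 5220 bp from Mir1b, a muscle microRNA, had 5.08-fold.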
